A study of Mus musculus with 18 samples.

Results

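The 35 genes described here encode proteins that duplicate the genome or divide it: 16 act in S phase and 19 in mitosis. They were listed by name, with earlier results of these data known, and all 35 symbols matched a gene ID among the 35275 IDs of the deposited table. In a dividing cell, CDC6 and CDT1 load the MCM helicase onto replication origins, and kinases then start the helicase as enzymes of nucleotide synthesis supply DNA precursors. E2F factors, held back by RB until a cell commits to division, drive many S phase genes. MuvB complexes with B-MYB and FOXM1 drive the mitosis genes later, through a promoter element called CHR (cell cycle genes homology region), often beside CCAAT boxes. Mature splenic B cells are mostly quiescent, and BAFF (also called BLyS) is known above all as a cytokine that keeps them alive.

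The RNA came from pan B cells isolated from C57BL/6 mouse spleens. Every library received a pretreatment of 1 h at 1000 ng/ml and was then kept for another 4 h. The pretreatment was mBaffR-mFc, a fusion protein of the BAFF receptor used, per the series' design, to block the part of BAFF that binds the receptor BR3, or a control antibody. The 4 h were spent with 100 ng/ml of BAFF 60mer, with 100 ng/ml of BAFF 3mer (60 and 3 subunits of the cytokine joined in 1 particle), or without BAFF. The groups of 3 libraries each are called BRFc_60mer, BRFc_3mer and BRFc after mBaffR-mFc, and Ab_60mer, Ab_3mer and Ab after control antibody. Whether the 3 replicates of a group were separate animals is not stated, so the p-values reflect library-to-library spread, which may be technical. The comparisons ask what each form of BAFF did to transcript levels and whether the blocking reagent changed it.

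The 18 libraries held 12.2 to 25.4 M fragments (M, mega), with a median of 18.4 M. B cell markers were high throughout: Cd79a was at 772 to 936 FPKM (fragments per kilobase of transcript and per M fragments), Cd79b at 722 to 832 FPKM, Pax5 at 173 to 229 FPKM and Ms4a1 at 168 to 188 FPKM. Connective tissue transcripts split the libraries across the group labels. The summed level of Col1a1, Col1a2, Col3a1, Sparc, Dcn and Bgn was 8.14 to 12.9 FPKM in all BRFc_60mer, all Ab_60mer and Ab_3mer replicates 1 and 2. It was 0 to 0.131 FPKM in the other 10 libraries. Every BAFF 60mer library therefore carried these transcripts and no library without BAFF did. For that contrast the tissue and BAFF 60mer thus cannot be told apart. The same holds for BRFc_60mer against BRFc_3mer, since no BRFc_3mer library carried them. In bulk RNA, a change in the number of cycling cells and a change in transcripts per cell cannot be told apart either.

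Promoters are shown for 3 genes that passed a test below and for Ccnb2, a mitotic cyclin with the classic arrangement of elements. RefSeq windows of 300 bases, 250 before to 50 after a transcription start (build GRCm38.p6), were found for 29 of the 35 genes, as 31 windows. Capitals mark matches, on either strand, to E2F letters (TTTCCCGC or TTTGGCGC), a CCAAT box (CCAAT) or CHR letters (TTTGAA).
Tk1 (chr11:117825965-117826264, minus strand): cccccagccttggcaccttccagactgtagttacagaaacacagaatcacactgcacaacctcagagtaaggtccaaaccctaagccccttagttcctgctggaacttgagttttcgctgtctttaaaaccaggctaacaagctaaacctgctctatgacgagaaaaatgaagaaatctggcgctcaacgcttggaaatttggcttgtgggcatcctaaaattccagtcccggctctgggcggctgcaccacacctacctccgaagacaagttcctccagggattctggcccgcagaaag
Mcm5 (chr8:75109259-75109558, plus strand): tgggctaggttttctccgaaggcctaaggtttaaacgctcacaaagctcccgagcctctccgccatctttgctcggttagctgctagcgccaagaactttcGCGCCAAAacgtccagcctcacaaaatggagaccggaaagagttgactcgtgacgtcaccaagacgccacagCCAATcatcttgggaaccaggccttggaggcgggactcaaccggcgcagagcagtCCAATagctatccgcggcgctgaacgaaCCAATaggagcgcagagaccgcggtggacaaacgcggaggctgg
Top2a (chr11:99024140-99024439, minus strand): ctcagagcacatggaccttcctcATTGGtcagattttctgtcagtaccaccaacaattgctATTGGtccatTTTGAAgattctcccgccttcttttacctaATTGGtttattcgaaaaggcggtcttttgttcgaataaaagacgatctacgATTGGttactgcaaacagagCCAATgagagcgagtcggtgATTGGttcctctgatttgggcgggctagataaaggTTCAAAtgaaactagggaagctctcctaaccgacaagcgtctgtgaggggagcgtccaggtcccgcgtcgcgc
Ccnb2 (chr9:70421505-70421804, minus strand): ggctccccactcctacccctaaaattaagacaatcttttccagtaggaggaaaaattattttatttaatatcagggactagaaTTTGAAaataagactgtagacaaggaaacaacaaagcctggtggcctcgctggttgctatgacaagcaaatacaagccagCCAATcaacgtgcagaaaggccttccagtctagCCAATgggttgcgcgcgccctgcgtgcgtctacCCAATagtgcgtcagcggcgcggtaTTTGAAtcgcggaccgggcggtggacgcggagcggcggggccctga

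The Mcm5 window held 1 match to the E2F letters and 3 CCAAT boxes. The Top2a window held 6 CCAAT boxes and 2 CHR matches, and that of Ccnb2 held 3 and 2. The Tk1 window held none of these letters. Among all members, E2F letters stood in 6 of 16 S phase windows (Cdc6, Cdt1, Mcm3, Mcm5, Mcm6 and Mcm7) and 0 of 15 mitosis windows, against 1.56% of all 32851 windows. CHR letters stood in 1 of 16 S phase windows (Mcm2) and 11 of 15 mitosis windows, against 17.9% of all windows. CCAAT boxes stood in 11 of 16 and 14 of 15, against 37.4%. A match is a stretch of letters and not a tested binding site, and the absence of one says nothing about a factor. Kif20a, Aurkb, Ccna2, Tpx2, Gins2 and Mcm4 had no window.

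In these B cells the S phase genes had a median level near that of all tested genes, and the mitosis genes were scarce. The median level over all 18 libraries was 18.7 FPKM for the 16 S phase genes and 1.89 FPKM for the 19 mitosis genes, against 17.7 FPKM for all tested genes. Above 10 FPKM stood 10 S phase genes and 2 mitosis genes, Top2a and Bub1b. Below 3 FPKM were 14 mitosis genes and 3 S phase genes, Cdc6, Gins2 and E2f1. The length that divides the fragments of each member was inferred, as one under which its values in the 18 libraries gave whole fragments. This divisor was near the mean length of the annotated transcripts in some members, such as Tk1 (1097 bases). In others it was not, such as Mki67 (10075 against a mean of 5318 bases) and Cenpe (7813 against 2042 bases). The longest transcript was 0.988 to 4.33 times that divisor, and over 2 times in 10 members. Per longest transcript, the medians were 18.6 FPKM for S phase and 1.37 FPKM for mitosis genes, and no mitosis gene stayed above 10 FPKM.

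**Figure D1:**
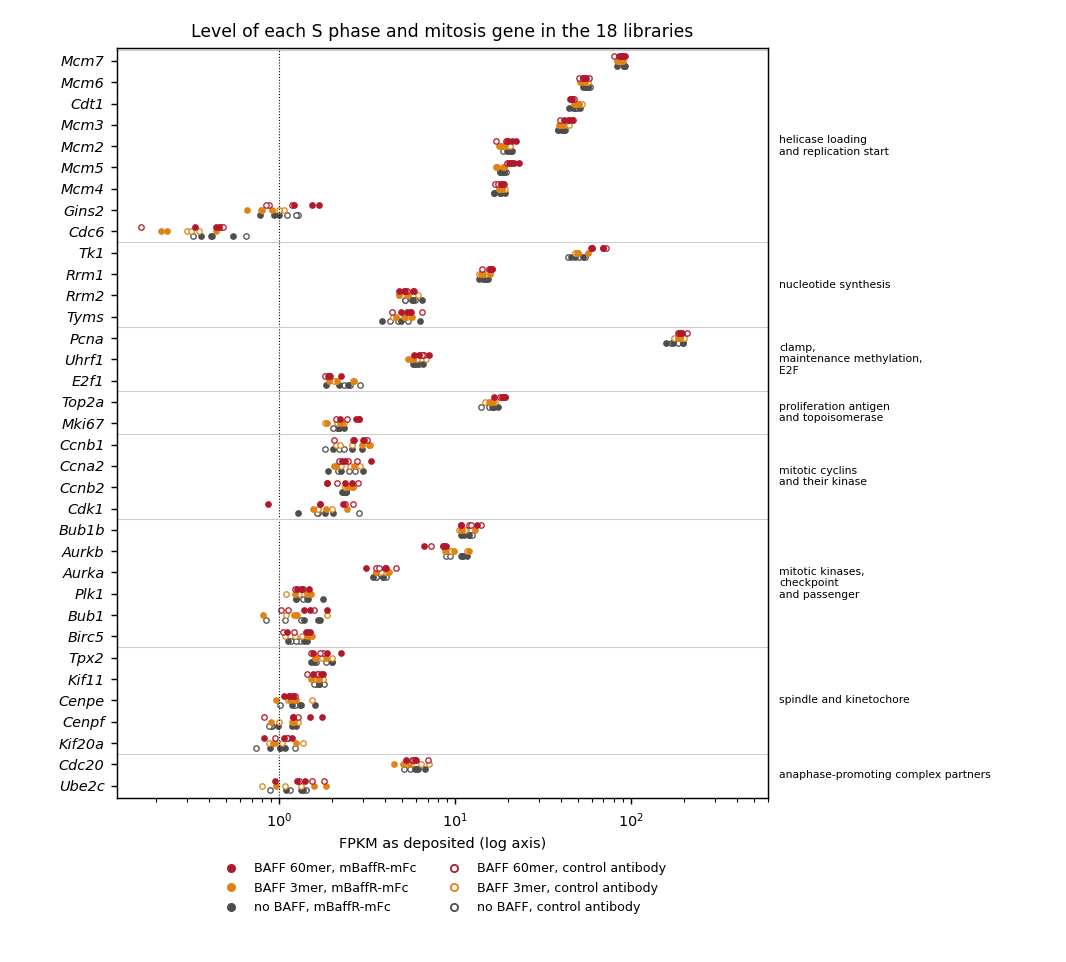
Level of each gene in each of the 18 libraries, in deposited FPKM on a log axis, grouped by role; filled points are mBaffR-mFc libraries, open points control antibody libraries, colours the BAFF condition, and the dotted line 1 FPKM. The MCM genes, Cdt1, Tk1 and Pcna lie between 10 and 210 FPKM, most mitosis genes lie near 1 to 4 FPKM, and Cdc6 lies below 1 FPKM.

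Among the genes that load and start the replicative helicase, the 6 MCM subunits had mean levels of 88.5 FPKM (Mcm7), 55.1 FPKM (Mcm6), 41.9 FPKM (Mcm3), 19.7 FPKM (Mcm2), 19.3 FPKM (Mcm5) and 18.1 FPKM (Mcm4). The highest library of each was 1.15 to 1.35 times its lowest. Their loader Cdt1 averaged 48.0 FPKM, whereas its partner Cdc6 averaged 0.382 FPKM, with 9 to 45 fragments per library, and stayed below the minimum of 1 FPKM set for testing. Gins2, a subunit of the GINS complex that joins the MCM ring to form the active helicase, averaged 1.05 FPKM. The loading genes thus did not share a level: 7 of 9 exceeded 18 FPKM and the other 2 were near or below 1 FPKM.

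Of the genes for DNA precursors, Tk1, the cytosolic thymidine kinase of the salvage route, averaged 55.1 FPKM. Rrm1, the large subunit of ribonucleotide reductase, averaged 14.98 FPKM and its partner Rrm2 averaged 5.47 FPKM. Tyms, which makes thymidylate from deoxyuridylate, averaged 5.13 FPKM. Pcna, the sliding clamp of the replication fork that also serves DNA repair, was the highest member at 188 FPKM, with a range of 159 to 210 FPKM. Uhrf1, which guides maintenance methylation to new DNA, averaged 6.16 FPKM. The transcription factor E2f1 averaged 2.19 FPKM.

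Of the mitosis genes, Top2a, the topoisomerase that untangles sister chromatids, averaged 16.9 FPKM. The proliferation antigen Mki67 averaged 2.28 FPKM. Bub1b, which encodes the checkpoint protein BUBR1, averaged 11.8 FPKM, and its relative Bub1 averaged 1.34 FPKM. Aurkb, the kinase of the chromosomal passenger complex that corrects kinetochore attachments, averaged 9.58 FPKM, while Birc5, the survivin subunit of the same complex, averaged 1.31 FPKM. The spindle pole kinase Aurka averaged 3.82 FPKM and the mitotic kinase Plk1 averaged 1.37 FPKM. The mitotic cyclins Ccnb1, Ccna2 and Ccnb2 averaged 2.60, 2.47 and 2.37 FPKM, and their kinase Cdk1 averaged 1.89 FPKM. The activator of the anaphase-promoting complex, Cdc20, averaged 5.86 FPKM and the conjugating enzyme of that complex, Ube2c, averaged 1.28 FPKM. The spindle and kinetochore genes were all low: Tpx2 (microtubule nucleation) 1.76 FPKM, Kif11 (the motor that separates spindle poles) 1.65 FPKM, the kinetochore proteins Cenpe 1.22 FPKM and Cenpf 1.15 FPKM, and Kif20a (a motor of cytokinesis) 1.03 FPKM.

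Low levels meant few fragments, as recovered from the steps between FPKM values. The median library held under 100 fragments for 14 members, of which 12 were mitosis genes and 2 S phase genes. Cdk1 had 14 to 52 fragments per library, against 2311 to 3893 for Pcna. The coefficient of variation within groups was a median of 1.42 times that of counting error alone, and below 1.5 times in 20 of 35 members.

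**Figure D2:**
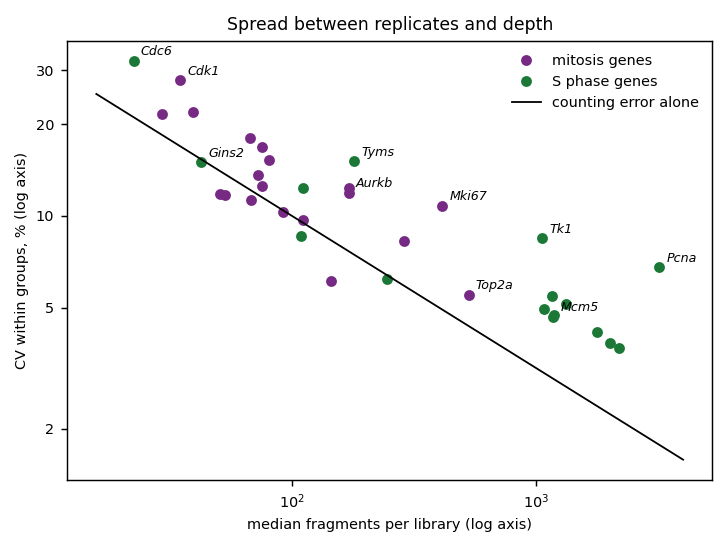
Coefficient of variation within groups, in %, against the median number of recovered fragments per library, both on log axes, for the 35 genes; the line is counting error alone. The scarce mitosis genes lie along the line, and the more abundant of the S phase genes, among them Pcna and Tk1, lie above it.

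After BAFF 60mer, 4 of the 34 tested members changed when both pretreatments were averaged. Tk1, Mcm5 and Top2a rose and Aurkb fell, each by less than 1.5-fold. In this comparison 22.1% of the 11646 tested genes passed (7.89% higher, 14.3% lower), at an adjusted p under 0.05 (limma, Benjamini-Hochberg). The median log2 difference was 0.03 over the members and -0.02 over all tested genes. Levels, per library, are given first for each of the 4 genes, with replicates 1 to 3 of a group in order.

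Tk1 stood at 69.4, 60.5 and 60.2 FPKM in BRFc_60mer, 57.3, 49.6 and 49.95 FPKM in BRFc_3mer, and 48.5, 53.5 and 45.8 FPKM in BRFc. It stood at 72.01, 59.2 and 69.6 FPKM in Ab_60mer, 50.2, 49.0 and 48.0 FPKM in Ab_3mer, and 55.0, 44.2 and 50.9 FPKM in Ab. All 6 BAFF 60mer libraries were above all 12 others. The mean was 65.1 ± 5.79 FPKM with BAFF 60mer, against 49.6 ± 4.25 FPKM without BAFF (SD, n = 6 each). The log2 difference on the log2(FPKM + 1) scale was 0.38 ± 0.0624 (SE; 30.6% higher on that scale, limma adjusted p = 0.000415).

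Mcm5 stood at 20.3, 21.8 and 23.1 FPKM in BRFc_60mer, 17.1, 18.9 and 19.1 FPKM in BRFc_3mer, and 18.6, 18.1 and 18.99 FPKM in BRFc. It stood at 19.7, 21.0 and 21.1 FPKM in Ab_60mer, 17.4, 17.5 and 18.7 FPKM in Ab_3mer, and 18.1, 19.5 and 18.95 FPKM in Ab. Again the lowest BAFF 60mer library, at 19.7 FPKM, was above the highest other library, at 19.5 FPKM. The difference to no BAFF was 0.17 ± 0.0403 (12.4% higher, limma adjusted p = 0.00703). The other 5 MCM genes did not pass, with log2 differences of -0.04 (Mcm6), -0.04 (Mcm7), -0.02 (Mcm2), 0.02 (Mcm4) and 0.12 (Mcm3, limma adjusted p = 0.0534). Mcm3 passed with a minimum of 5 FPKM (adjusted p = 0.0463), with median-of-ratios rescaling (0.0232) and with voom on recovered fragments (0.043), which gave 5 members each.

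Top2a stood at 19.3, 18.5 and 16.7 FPKM in BRFc_60mer, 16.4, 16.4 and 15.7 FPKM in BRFc_3mer, and 17.5, 16.6 and 16.5 FPKM in BRFc. It stood at 18.7, 19.4 and 17.96 FPKM in Ab_60mer, 14.8, 16.9 and 16.3 FPKM in Ab_3mer, and 14.2, 15.7 and 16.3 FPKM in Ab. After control antibody, all BAFF 60mer libraries were above the others. After mBaffR-mFc, BRFc_60mer replicate 3 lay below BRFc replicate 1. The averaged difference to no BAFF was 0.18 ± 0.0453 (13.5% higher, limma adjusted p = 0.0087).

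Aurkb went the other way. It stood at 8.88, 6.68 and 8.56 FPKM in BRFc_60mer, 8.75, 9.89 and 11.98 FPKM in BRFc_3mer, and 11.1, 10.97 and 11.6 FPKM in BRFc. It stood at 8.67, 7.30 and 8.51 FPKM in Ab_60mer, 9.35, 9.46 and 11.7 FPKM in Ab_3mer, and 10.9, 8.87 and 9.32 FPKM in Ab. Of the 6 BAFF 60mer libraries, 5 were below all others, and the highest, at 8.88 FPKM, slightly exceeded the lowest of the others, at 8.75 FPKM. The mean was 8.10 ± 0.89 FPKM with BAFF 60mer, against 10.5 ± 1.10 FPKM without BAFF (SD, n = 6 each), a log2 difference of -0.33 ± 0.0823 (20.6% lower, limma adjusted p = 0.00862). Its partner Birc5 showed a difference of 0.00 ± 0.0753 and did not pass.

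**Figure D3:**
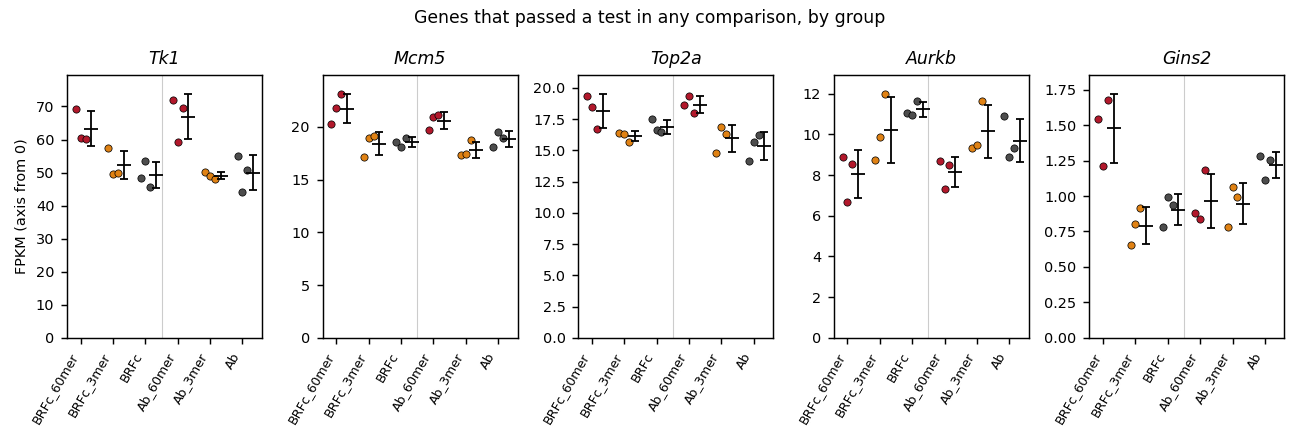
FPKM per library (points) with the mean and SD of 3 libraries (bars) for the 5 genes that passed a test in any comparison; colours mark the BAFF condition and the grey line divides mBaffR-mFc (left) from control antibody (right). In Tk1 and Mcm5 the BAFF 60mer libraries lie above all others, in Aurkb they lie low, and Gins2 stands highest in BRFc_60mer, at 1.21 to 1.68 FPKM in 3 libraries.

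The calls of these 4 genes held in 18 of 19 alternatives each, including all 12 that left out 1 library, and ended under the term for connective tissue transcripts. With that term Tk1 stood at 0.34 ± 0.15 (adjusted p = 0.657), Mcm5 at 0.27 ± 0.0936 (adjusted p = 0.476), Top2a at 0.23 ± 0.109 (adjusted p = 0.712) and Aurkb at -0.05 ± 0.183 (adjusted p = 0.982). The standard errors grew to more than 2 times their size. Ab_3mer was the only group with both kinds of library, so the term rests on its replicates 1 and 2 against replicate 3 alone. Aurkb was at 11.7 FPKM in that 1 library, against 9.35 and 9.46 FPKM in the other two. The values under the term turn on that 1 library. The comparison that is free of the split sets Ab_60mer against the carrying Ab_3mer libraries, replicates 1 and 2. There Tk1 was at 0.42 ± 0.101 (limma adjusted p = 0.0413) and was the 1 member that passed, where 246 of all 11646 tested genes passed. Mcm5 was at 0.23 ± 0.0631 (adjusted p = 0.0785), Top2a at 0.23 ± 0.0736 (adjusted p = 0.14) and Aurkb at -0.19 ± 0.123 (adjusted p = 0.523).

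Markers of B cells and of other cells were read beside these genes. Of the B cell markers, Cd79a was at -0.12 ± 0.0411 after BAFF 60mer (limma adjusted p = 0.0438) and Pax5 at -0.13 ± 0.0419 (adjusted p = 0.0354), so both fell. Cd79a was at 789 to 809 FPKM in BRFc_60mer against 822 to 930 FPKM in BRFc, and at 772 to 813 FPKM in Ab_60mer against 849 to 926 FPKM in Ab. Pax5 was at 173 to 187 FPKM in BRFc_60mer against 191 to 229 FPKM in BRFc, but overlapped after control antibody, at 180 to 198 FPKM in Ab_60mer against 190 to 196 FPKM in Ab. The 5 NK cell markers, all at 1 FPKM or more, summed to 45.1 to 50.2 FPKM in BRFc_60mer against 51.4 to 57.0 FPKM in BRFc, and to 43.9 to 47.4 FPKM in Ab_60mer against 51.8 to 58.3 FPKM in Ab. Of them, Klrd1 and Klre1 fell. The 5 germinal centre markers that averaged 1 FPKM or more summed to 47.6 to 51.7 FPKM in BRFc_60mer against 37.0 to 40.1 FPKM in BRFc, and to 40.8 to 47.1 FPKM in Ab_60mer against 39.3 to 41.9 FPKM in Ab. Of that list, Bcl6 rose by 0.26 ± 0.0353 (limma adjusted p = 7.74e-05). The 6 plasma cell and plasmablast markers summed to 300 to 356 FPKM over all libraries, and 1 of them, Sdc1, fell by 0.79 on the log2 scale (adjusted p = 1.48e-07). The 6 T cell markers summed to 3.16 to 4.89 FPKM over all libraries. Over the same libraries, the 5 myeloid markers summed to 127 to 154 FPKM, of which Lyz2 was at 95.6 to 120 FPKM. The 5 neutrophil precursor markers summed to 17.2 to 32.5 FPKM. The 8 erythroid precursor markers summed to 100 to 124 FPKM, of which Tfrc was at 96.9 to 121 FPKM. The part of the share of B, NK, germinal centre, plasma, myeloid or precursor cells in the changes of members was not tested.

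The other 30 tested members did not pass after BAFF 60mer, and their 95% limits bounded what could have been missed. The limits ran from -0.35 (lower limit of E2f1) to 0.36 (upper limit of Ccnb1) on the log2 scale, inside a 1.5-fold change of FPKM + 1 in both directions for all 30. For members near 1 FPKM, such limits allow larger ratios of the levels themselves. An unadjusted p under 0.05 was found for 9 members, the 4 that passed and E2f1, Mcm3, Pcna, Ccnb1 and Rrm1. E2f1 was at 1.82 to 2.24 FPKM in the 6 BAFF 60mer libraries, against 1.84 to 2.89 FPKM without BAFF, and the difference of -0.18 ± 0.0779 had a limma adjusted p of 0.101. Pcna was at 187 to 210 FPKM with BAFF 60mer, against 159 to 198 FPKM without BAFF, a difference of 0.11 ± 0.0514 (adjusted p = 0.129). Mki67 was at 2.10 to 2.86 FPKM against 2.02 to 2.35 FPKM, a difference of 0.15 ± 0.0736 (adjusted p = 0.161). The mitotic cyclins and Cdk1 gave differences of 0.18 (Ccnb1), 0.06 (Ccna2), -0.05 (Ccnb2) and 0.01 (Cdk1), all without a call.

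**Figure D4:**
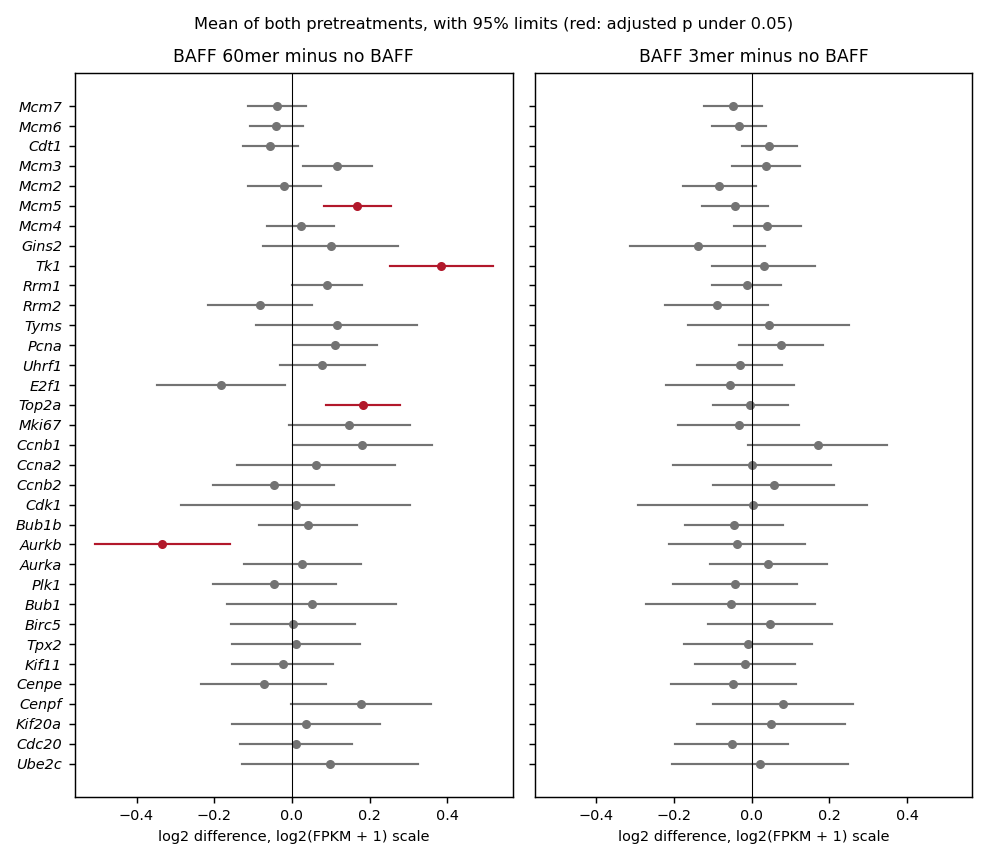
Log2 differences with 95% limits for the 34 tested genes, BAFF 60mer minus no BAFF on the left and BAFF 3mer minus no BAFF on the right, mean of both pretreatments, on the log2(FPKM + 1) scale; red marks an adjusted p under 0.05. On the left Tk1, Mcm5 and Top2a lie above 0 and Aurkb below, and on the right no gene is red.

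After BAFF 3mer no member passed. Averaged over the pretreatments, 0 of 34 passed against no BAFF in limma, 0 had an unadjusted p under 0.05 and voom on recovered fragments also called 0. Of all tested genes 0% passed. The 95% limits ran from -0.31 (Gins2) to 0.35 (Ccnb1), again within 1.5-fold of FPKM + 1 for all 34. Tk1 was at 48.0 to 57.3 FPKM with BAFF 3mer, against 44.2 to 55.0 FPKM without BAFF, a difference of 0.03 ± 0.0624. Within a pretreatment, 0 of 34 passed in BRFc_3mer against BRFc, where Cdc20 and Bub1 had an unadjusted p under 0.05 and 0% of all genes passed. In Ab_3mer against Ab 0 of 34 passed, 0 had an unadjusted p under 0.05, and 0% of all genes passed. In both, voom called 0 members.

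Set directly against each other, the 2 forms of BAFF differed in the same 4 genes. BAFF 60mer minus BAFF 3mer, averaged over the pretreatments, was 0.35 ± 0.0624 for Tk1 (limma adjusted p = 0.00109), 0.21 ± 0.0403 for Mcm5 (adjusted p = 0.00199), 0.19 ± 0.0453 for Top2a (adjusted p = 0.0114) and -0.30 ± 0.0823 for Aurkb (adjusted p = 0.0234). In this comparison 14.5% of all tested genes passed (5.9% higher, 8.6% lower). It shares the BAFF 60mer libraries with the comparison to no BAFF, so the 4 genes are not a second, separate result. The calls of Tk1, Mcm5 and Top2a held in 18 of 19 alternatives and that of Aurkb in 13 of 19. All 4 ended under the connective tissue term (adjusted p = 0.231 for Tk1, 0.069 for Mcm5, 0.282 for Top2a and 0.845 for Aurkb). Of the BAFF 3mer libraries, only Ab_3mer replicates 1 and 2 carried those transcripts. The Aurkb call also ended without Ab_3mer replicate 3 (adjusted p = 0.0678), BRFc_3mer replicate 3 (0.0683), Ab_60mer replicate 2 (0.0616) or BRFc_60mer replicate 2 (0.0642), and with no filter (0.0594). Under 3 alternatives 5 members passed. Gins2 was higher with voom on recovered fragments (0.48, adjusted p = 0.0376), against 0.24 ± 0.0822 in limma (adjusted p = 0.0609). Cdt1 was lower with a minimum of 5 FPKM (adjusted p = 0.0481) or a fit of only the groups compared (0.0464), against -0.10 ± 0.0336 and an adjusted p of 0.0554 in the limma fit of all groups.

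Within a single pretreatment fewer members passed. In Ab_60mer against Ab, where 14% of all genes passed (5.04% higher, 8.94% lower), Tk1 (0.41 ± 0.0882, limma adjusted p = 0.00624) and Top2a (0.27 ± 0.0641, adjusted p = 0.0121) rose, and 32 of 34 did not pass. The Top2a call ended without Ab replicate 1 (adjusted p = 0.0666) or Ab_60mer replicate 2 (0.0512). In Ab_60mer against Ab_3mer, where 4.81% of all genes passed (1.8% higher, 3.01% lower), Tk1 rose (0.44 ± 0.0882, adjusted p = 0.00851). That call ended without Ab_60mer replicate 1 (adjusted p = 0.0524), and no other member passed.

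After mBaffR-mFc, Tk1 (0.36 ± 0.0882, limma adjusted p = 0.0261) and Mcm5 (0.22 ± 0.0569, adjusted p = 0.0371) rose and Aurkb fell (-0.44 ± 0.116, adjusted p = 0.0361) in BRFc_60mer against BRFc, where 4.83% of all genes passed (1.46% higher, 3.37% lower). Each of these 3 calls ended when single libraries were left out. Tk1 lost it without BRFc replicate 1 (0.0537) or 3 (0.134) or BRFc_60mer replicate 1 (0.124) or 2 (0.0521). Mcm5 lost it without BRFc replicate 1 (0.0607), 2 (0.133) or 3 (0.0793) or BRFc_60mer replicate 2 (0.107) or 3 (0.116). Aurkb lost it without BRFc replicate 1 (0.0567), 2 (0.0892) or 3 (0.134) or BRFc_60mer replicate 2 (0.17). The direction stayed the same in each of these fits.

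In BRFc_60mer against BRFc_3mer, where 5.16% of all genes passed (2.05% higher, 3.11% lower), Mcm5 (0.23 ± 0.0569, limma adjusted p = 0.0265) and Gins2 (0.47 ± 0.116, adjusted p = 0.0266) rose. Gins2 stood at 1.54, 1.21 and 1.68 FPKM in BRFc_60mer, 0.658, 0.7996 and 0.917 FPKM in BRFc_3mer, and 0.781, 0.992 and 0.939 FPKM in BRFc. It stood at 0.880, 0.837 and 1.18 FPKM in Ab_60mer, 0.785, 1.06 and 0.993 FPKM in Ab_3mer, and 1.29, 1.11 and 1.26 FPKM in Ab. The lowest library held 23 fragments of it. Against no BAFF, Gins2 was at 0.38 ± 0.116 in BRFc_60mer (adjusted p = 0.0753) and -0.18 ± 0.116 in Ab_60mer (adjusted p = 0.33), and the interaction of BAFF 60mer with pretreatment, 0.55 ± 0.164, did not pass (adjusted p = 0.763). Voom on recovered fragments called Gins2 in BRFc_60mer against BRFc, at 0.71 (adjusted p = 0.0315). The Gins2 call ended without BRFc_3mer replicate 1 (0.0881), 2 (0.0815) or 3 (0.0568) or BRFc_60mer replicate 1 (0.0834) or 3 (0.0879). The Mcm5 call ended without BRFc_3mer replicate 1 (0.105), 2 (0.0576) or 3 (0.0518) or BRFc_60mer replicate 2 (0.0838) or 3 (0.0992). Both calls also ended under the connective tissue term (adjusted p = 0.422 for Mcm5 and 0.64 for Gins2). All BRFc_60mer libraries and no BRFc_3mer library carried those transcripts, so here too the tissue and BAFF 60mer cannot be told apart.

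Some members share exon bases with a gene on the opposite strand, and the sources used here do not state whether counting used strand, so their reads may be mixed. Gins2 shares 2758 bases with Gse1, which averaged 18.6 FPKM and was at -0.08 ± 0.0938 in BRFc_60mer against BRFc_3mer (limma adjusted p = 0.682). Tk1 shares 83 bases with Afmid, which averaged 9.24 FPKM and was at 0.11 ± 0.0813 with BAFF 60mer (adjusted p = 0.349). Kif20a shares 1271 bases with Cdc23, Ccna2 510 with Exosc9, Mcm7 321 with Ap4m1 and 64 with Cops6, and Cdc20 53 with Elovl1. Ube2c shares 592 with Tnnc2, which averaged 0.0 FPKM, and Plk1 shares 156 with Gm44985, which had no value. Levels of these members are uncertain to the extent that the other gene gave reads.

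No member passed for the pretreatment itself, mBaffR-mFc against control antibody. Averaged over the 3 BAFF conditions, 0 of 34 members passed in limma, 1 (Ccnb1) had an unadjusted p under 0.05, voom called 0, and 0.00859% of all genes passed. Ccnb1 averaged 2.91, 3.16 and 2.52 FPKM in BRFc_60mer, BRFc_3mer and BRFc, against 2.61, 2.31 and 2.11 FPKM in Ab_60mer, Ab_3mer and Ab, a difference of 0.21 ± 0.0691 (adjusted p = 0.998). The 95% limits of all 34 members, from -0.38 (Cdk1) to 0.36 (Ccnb1), lay within 1.5-fold of FPKM + 1. In BRFc_60mer against Ab_60mer, where 0.0258% of all genes passed, 0 members passed and Gins2 and Mcm2 had an unadjusted p under 0.05. In BRFc_3mer against Ab_3mer, where 0% of all genes passed, 0 members passed and Ccnb1 and Cdc20 had an unadjusted p under 0.05. In BRFc against Ab, where 0% of all genes passed, 0 members passed and Bub1 had an unadjusted p under 0.05. In these 3 comparisons voom also called 0 members.

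No member passed the test of a different response to BAFF under the 2 pretreatments. The interaction of BAFF 60mer with pretreatment passed in 0 of 34 members and 0.00859% of all genes, with 1 member (Gins2) at an unadjusted p under 0.05. For Tk1 it was -0.06 ± 0.125, with 95% limits of -0.32 to 0.21, and for Mcm5 0.09 ± 0.0805, with limits of -0.08 to 0.26. For Top2a it was -0.17 ± 0.0906 and for Aurkb -0.22 ± 0.165. For 31 of the 34 members the 95% limits of this interaction lay within 1.5-fold of FPKM + 1, and for 3 they reached beyond it. The interaction of BAFF 3mer passed in 0 of 34 members and 0% of all genes, with Cdc20 and Bub1 at an unadjusted p under 0.05. In both interactions voom also called 0 members. Over all 6 groups, the moderated F test called Tk1 (limma adjusted p = 0.00562), Mcm5 (0.024) and Top2a (0.0479), against 8.93% of all genes.

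Sums over the members, given without a test, were set by their most abundant genes. The S phase members together reached 590 ± 2.23 FPKM in BRFc_60mer, 559 ± 6.04 FPKM in BRFc_3mer and 552 ± 20.6 FPKM in BRFc. They reached 587 ± 16.8 FPKM in Ab_60mer, 568 ± 15.5 FPKM in Ab_3mer and 563 ± 14.1 FPKM in Ab (SD, n = 3 each). Pcna, with a mean of 188 FPKM, was the largest item of each sum. The mitosis members reached 72.2 ± 0.653 FPKM in BRFc_60mer, 70.8 ± 0.962 FPKM in BRFc_3mer and 73.2 ± 1.10 FPKM in BRFc, and 73.7 ± 0.609 FPKM in Ab_60mer, 70.9 ± 1.57 FPKM in Ab_3mer and 69.1 ± 0.79 FPKM in Ab.

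Related cell cycle genes were read in the same way after BAFF 60mer, averaged over the pretreatments, against the same background of 22.1%. The share that passed was below this background in every list that follows except the G1 genes. Of 44 other tested replication genes, 4 rose and 3 fell, with a median log2 difference of -0.01. Pole, the catalytic subunit of leading strand polymerase, rose by 0.29 ± 0.0526 (limma adjusted p = 0.000925), and averaged 8.44 ± 0.863 FPKM in BRFc_60mer against 6.99 ± 0.131 FPKM in BRFc, and 9.20 ± 0.542 FPKM in Ab_60mer against 6.995 ± 0.357 FPKM in Ab. Dck, the deoxycytidine kinase of nucleoside salvage, went opposite to Tk1 and was at -0.41 ± 0.0606 (adjusted p = 0.000206). It averaged 17.2 ± 0.609 FPKM in BRFc_60mer against 23.8 ± 3.42 FPKM in BRFc, and 16.96 ± 0.801 FPKM in Ab_60mer against 22.3 ± 1.63 FPKM in Ab. Rfc2, a subunit of the clamp loader, was at -0.21 ± 0.0437 (adjusted p = 0.00349), and Brca1, which acts in repair by recombination, at 0.19 ± 0.0667 (adjusted p = 0.0459).

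Of 39 other tested mitosis genes, 2 rose and 5 fell, with a median of -0.02. Cdc25b, the phosphatase that activates CDK1, was at -0.48 ± 0.0459 (limma adjusted p = 3.34e-06), the centromeric histone Cenpa at -0.37 ± 0.0448 (adjusted p = 3.19e-05) and the kinetochore gene Ndc80 at -0.34 ± 0.0555 (adjusted p = 0.000464). Melk rose by 0.39 ± 0.132 (adjusted p = 0.046). Cenpa averaged 39.1 ± 3.03 FPKM in BRFc_60mer against 50.1 ± 2.57 FPKM in BRFc, and 38.1 ± 2.99 FPKM in Ab_60mer against 50.2 ± 2.79 FPKM in Ab.

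Upstream of the members, 6 of 12 tested G1 genes changed. The cyclin Ccnd2 (0.42 ± 0.0468, limma adjusted p = 1.66e-05) and its kinase partner Cdk6 (0.38 ± 0.0748, adjusted p = 0.0021) rose. The cyclin Ccne1 (-0.80 ± 0.0789, adjusted p = 4.56e-06) and the CDK inhibitor Cdkn2d (-0.58 ± 0.111, adjusted p = 0.0017) fell most, and 2 other inhibitor or kinase genes fell by less. Of 16 regulators around E2F, RB and MuvB, 0 rose and 1 fell: Rb1, at -0.14 ± 0.0418 (adjusted p = 0.0276). Of 14 tested replication-dependent histone genes, whose copies are near-identical and whose reads may be split between them, 1 rose and 1 fell, with a median of 0.31. Hist1h4h rose by 0.49 ± 0.166 (adjusted p = 0.0429) and Hist1h1c was at -0.18 ± 0.0573 (adjusted p = 0.0303). The histone median was 0.11 in BAFF 3mer minus no BAFF and 0.02 in BAFF 60mer minus BAFF 3mer, both averaged over the pretreatments. Connective tissue transcripts split the libraries for all these genes as for the members.

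**Figure D5:**
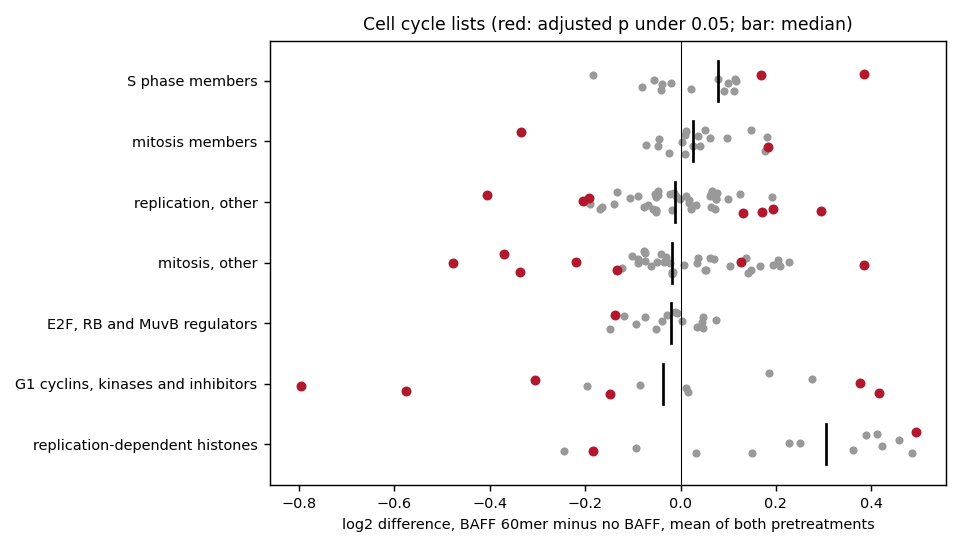
Log2 differences, BAFF 60mer minus no BAFF, mean of both pretreatments, for every tested gene (point) of the members and of 5 related lists, with the median of each list as a bar; red marks an adjusted p under 0.05. The medians of the members lie near 0, the G1 genes spread from -0.80 to 0.42, and the histone genes have the highest median, 0.31.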

How the data were processed

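RNA of 18 libraries was sequenced, and gene levels in FPKM were computed for the authors by a sequencing company, per the labels' protocols. The aligner, counting tool, strand setting and genome build are not given in the sources used here. The deposited table held 35275 gene IDs, of which 34490 matched GENCODE symbols, and 0 columns were left out. Values were taken as log2(FPKM + 1), where differences of genes near 1 FPKM are smaller than their ratios. Testing used limma 3.58.1 (R 4.3.3) on the 11646 genes whose mean over the libraries reached 1 FPKM (variance trend, 1 fit of 6 groups, no covariate, Benjamini-Hochberg adjustment, threshold 0.05, two-sided), in 15 contrasts and an F test. Fragments were recovered from the FPKM steps: 88.92% of values of single-transcript genes came out whole to within 0.1. Lengths that were means of a gene's transcripts gave whole fragments most often (60.7% of values). Alternatives were a pseudocount of 0.1, no filter, a minimum of 5 FPKM, median-of-ratios rescaling, a connective tissue term, leaving out each library, voom on recovered fragments, and fits restricted to the groups of a comparison. The limma step was tested on simulated data for the contrast of Ab_60mer and Ab.

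The members and the gene lists were chosen with earlier results of these data known. Named genes were all members, up to 4 passing genes per related list by size, and the defining markers of other cell types. Python 3.11.15 with matplotlib 3.10.9 drew the figures.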

Additional observations from a re-analysis of the deposited data

How the results depend on the processing

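Of 7769 values of single members under an alternative, 7698 kept their side of the threshold, 55 lost the call and 16 gained one. The sign turned in 631, all without a call in either fit, and in 0 called values. Most of the 7769 values had no call in the main fit, so no call could be lost there. Among the calls, that of Tk1 in BAFF 60mer against no BAFF held in 18 of 19 alternatives. In BRFc_60mer against BRFc, the call of Aurkb held in 5 of 13 and that of Tk1 in 6 of 13. With the connective tissue term, which rests on Ab_3mer replicate 3 against replicates 1 and 2, 0 members passed in BAFF 60mer against no BAFF (4 without the term), BAFF 60mer against BAFF 3mer (4), Ab_60mer against Ab (2), BRFc_60mer against BRFc (3), BRFc_60mer against BRFc_3mer (2) and the F test (3). In those comparisons the term left 20 of 2579, 124 of 1689, 16 of 1628, 10 of 563, 15 of 601 and 50 of 1040 calls among all genes, and 246 of 560 in Ab_60mer against Ab_3mer. A fit of only the groups compared, which has fewer samples, gave 0 members in BRFc_60mer against BRFc (139 of all genes) and 0 against BRFc_3mer (287), and 1053 and 252 of all genes in Ab_60mer against Ab and Ab_3mer. Without a filter 0 members passed in BRFc_60mer against BRFc. A minimum of 5 FPKM gave 1 in BRFc_60mer against BRFc_3mer, since Gins2 is then not tested, and 2 in Ab_60mer against Ab_3mer, as did rescaling and voom, each adding Mcm5. Leaving out 1 library gave 1 to 2 members in Ab_60mer against Ab, 0 to 1 in Ab_60mer against Ab_3mer, 0 to 2 in BRFc_60mer against BRFc, 0 to 1 in BRFc_60mer against BRFc_3mer and 1 to 3 in the F test. In the averaged comparisons it gave 4 to 6 members against no BAFF and 3 to 4 against BAFF 3mer, the gains being Mcm3, Pcna, Ccnb1 and Gins2. Rescaling moved the median of all genes by at most 0.0267 on the log2 scale. No paired analysis was possible because the labels give no replicate numbers and state no pairing. At this depth the scarce mitosis genes, with a median of under 100 fragments in 12 of 19, allow only changes well above their counting error to be seen. Beyond the smaller sample or gene sets named, the cause was not tested.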
